A study of Mus musculus with 24 samples.

Results

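The cytosolic ribosomal protein genes encode the protein subunits of the ribosome that translates nuclear messages. They were chosen from the gene table by symbol: Rpl or Rps followed by a number, or Rplp0, Rplp1, Rplp2 or Rpsa, with a protein-coding annotation. The rule found 84 genes of the 55416 in the table, of which 31 belong to the 40S subunit, 43 to the 60S subunit, 3 to the P stalk and 7 are paralogs of another member. A further 6 symbols fitted the pattern but are annotated as pseudogenes and were left out. Of the 84 genes, 82 reached 10 normalized counts in 6 or more libraries and were tested, and Rpl10l and Rpl39l were not.

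Each of the 24 libraries was made from mouse kidney RNA, with 6 libraries labelled as biological replicates in each of 4 groups. The groups were PolgD257A after B-IRI, Polg+/+ after B-IRI, PolgD257A after sham surgery and Polg+/+ after sham surgery. The labels call the procedure IRI surgery, where IRI is ischemia reperfusion injury, and describe the mice as littermates. PolgD257A mice carry a change in the proofreading domain of the mitochondrial DNA polymerase gamma, and mutations build up in their mitochondrial DNA. The allele is in the germline and so acts in every tissue. The sources used here do not give whether the PolgD257A mice had 1 or both alleles changed, the time after surgery, or the age and sex of the mice. Depth ran from 16689284 to 26341004 assigned reads per library. The injury marker Havcr1 (Kim-1) had 25923 to 36062 normalized counts after B-IRI in PolgD257A and 5441 to 24888 after B-IRI in Polg+/+, against 143 to 198 in sham PolgD257A and 112 to 180 in sham Polg+/+.

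A ribosome joins a small 40S subunit, which reads the message, to a large 60S subunit, which forms peptide bonds. The P stalk on the large subunit recruits the translation elongation factors. Ribosomal proteins are needed in matched amounts, and their messages typically begin with a tract of pyrimidines at the cap, the TOP (terminal oligopyrimidine) motif, through which mTORC1 and LARP1 control their translation. MYC is a known activator of ribosomal protein genes and of the factors that assemble ribosomes.

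The TOP tract can be seen at the annotated start of some members. RefSeq promoter windows (GRCm38.p6) were found for 64 of the 84 genes. In 13 of these genes (20.3%) the annotated start is a C that opens an unbroken run of C and T at least 5 bases long, read on the gene's own strand, against 3.01% of the 27025 genes with windows. The following 30-base windows run from 10 bases before the start, with the tract in capitals. They were chosen with the values known, to set 3 genes that rose after B-IRI (Rpl14, Rps6, Rplp2) beside 3 that passed no surgery test (Rpl35a, Rps21, Rps27).
Rpl14, chr9:120571507-120571536, plus strand: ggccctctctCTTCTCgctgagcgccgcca
Rps6, chr4:86857348-86857377, minus strand: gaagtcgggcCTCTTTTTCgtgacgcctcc
Rplp2, chr7:141447641-141447670, plus strand: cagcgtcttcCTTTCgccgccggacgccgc
Rpl35a, chr16:33056472-33056501, plus strand: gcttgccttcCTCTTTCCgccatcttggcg
Rps21, chr2:180257369-180257398, plus strand: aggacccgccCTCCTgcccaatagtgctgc
Rps27, chr3:90213629-90213658, minus strand: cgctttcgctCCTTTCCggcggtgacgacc
All 6 windows were picked from those that carry the tract. Of the 13 member genes with the tract, 9 rose after B-IRI in each genotype, with median log2 changes of 0.45 in PolgD257A and 0.36 in Polg+/+. Of the 49 tested member genes with a window and no tract, 43 and 42 rose, with medians of 0.40 and 0.35. Among all 17430 genes tested, 30.2% rose in PolgD257A and 21.4% in Polg+/+. RefSeq starts can lie some bases away from the start used in kidney, and no tract at the annotated base says only that these letters are not there.

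Other short motifs were counted on both strands of the windows, which span 250 bases before to 50 bases after the start. CCGGAAG, the core recognised by ETS factors, was present in 26 of the 64 member genes (40.6%) and in 9.93% of all genes with windows. GCCATNTT, the core recognised by YY1, was present in 13 members (20.3%) and in 6.96% of all genes. CTTTCC, a pyrimidine stretch that can overlap the TOP tract, was present in 34 members (53.1%) and in 29.3% of all genes. These are matches of letters, and no binding was measured.

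Ribosomal protein messages made up a larger share of the kidney RNA after B-IRI in both genotypes. The 84 genes held 2.82% to 3.71% of the assigned reads after B-IRI in PolgD257A, with a median of 3.20%, against 1.80% to 2.45% in sham PolgD257A, with a median of 2.19%. In Polg+/+ they held 2.65% to 3.10% after B-IRI, with a median of 2.81%, against 1.88% to 2.41% in sham, with a median of 2.06%. In neither genotype did the B-IRI and sham shares overlap, and this share does not depend on how libraries are scaled to each other. Between genotypes the shares overlapped after B-IRI and in sham. In bulk kidney RNA, more cells rich in these messages and more message per cell cannot be told apart.

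**Figure D1:**
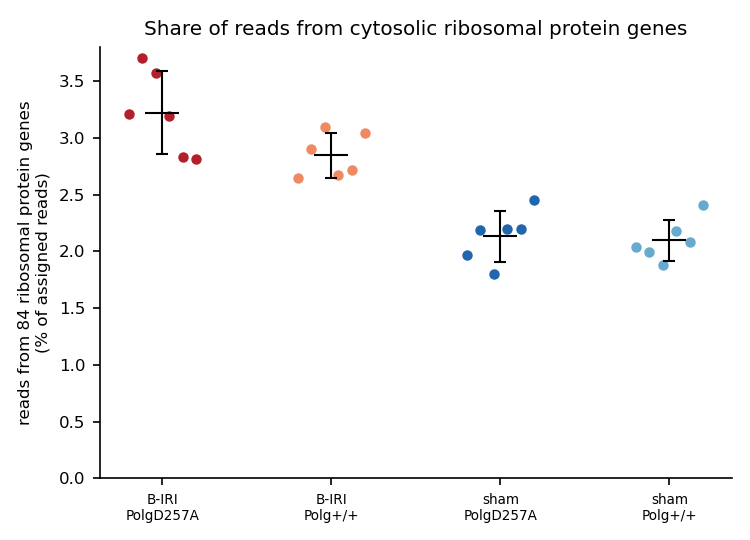
Percent of assigned reads that fell on the 84 cytosolic ribosomal protein genes, 1 point per library, with the mean and SD of 6 libraries per group in black. The means were 3.22% after B-IRI in PolgD257A and 2.85% after B-IRI in Polg+/+, against 2.13% in sham PolgD257A and 2.10% in sham Polg+/+.

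In PolgD257A kidneys, 71 of the 82 tested members were higher after B-IRI than after sham surgery and none was lower, by limma on log2(normalized count + 1) with an adjusted p of at most 0.05. The median change was 0.40 on the log2 scale, a 1.32-fold higher level, with a median standard error of 0.09 per gene. Of all 17430 genes tested in that comparison, 30.2% were called higher and 30.3% lower, against 86.6% and 0 of the members. In Polg+/+ kidneys 70 of 82 were higher and none lower, with a median change of 0.34 (1.27-fold), where 21.4% of all genes tested were called higher and 19.8% lower, against 85.4% and 0 of the members. The median over all genes tested was 0.00 in PolgD257A and -0.01 in Polg+/+. Of the members, 70 were called in both genotypes, Rpl26 was called in PolgD257A alone (limma, adjusted p = 0.0193, against 0.0503 in Polg+/+), and 11 were called in neither. The 2 surgery comparisons have no library in common.

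Separation between groups was not complete for every member. The 6 B-IRI libraries lay above all 6 sham libraries for 32 members in PolgD257A (39.0%, against 18.8% of all genes tested) and for 60 members in Polg+/+ (73.2%, against 11.5%). The averaged log2 level of the tested members ran from 12.28 to 12.70 after B-IRI in PolgD257A, against 11.86 to 12.35 in sham PolgD257A, where sham replicate 6 reached above the 2 lowest B-IRI libraries. It ran from 12.25 to 12.48 after B-IRI in Polg+/+, against 11.83 to 12.17 in sham Polg+/+, with no overlap.

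**Figure D2:**
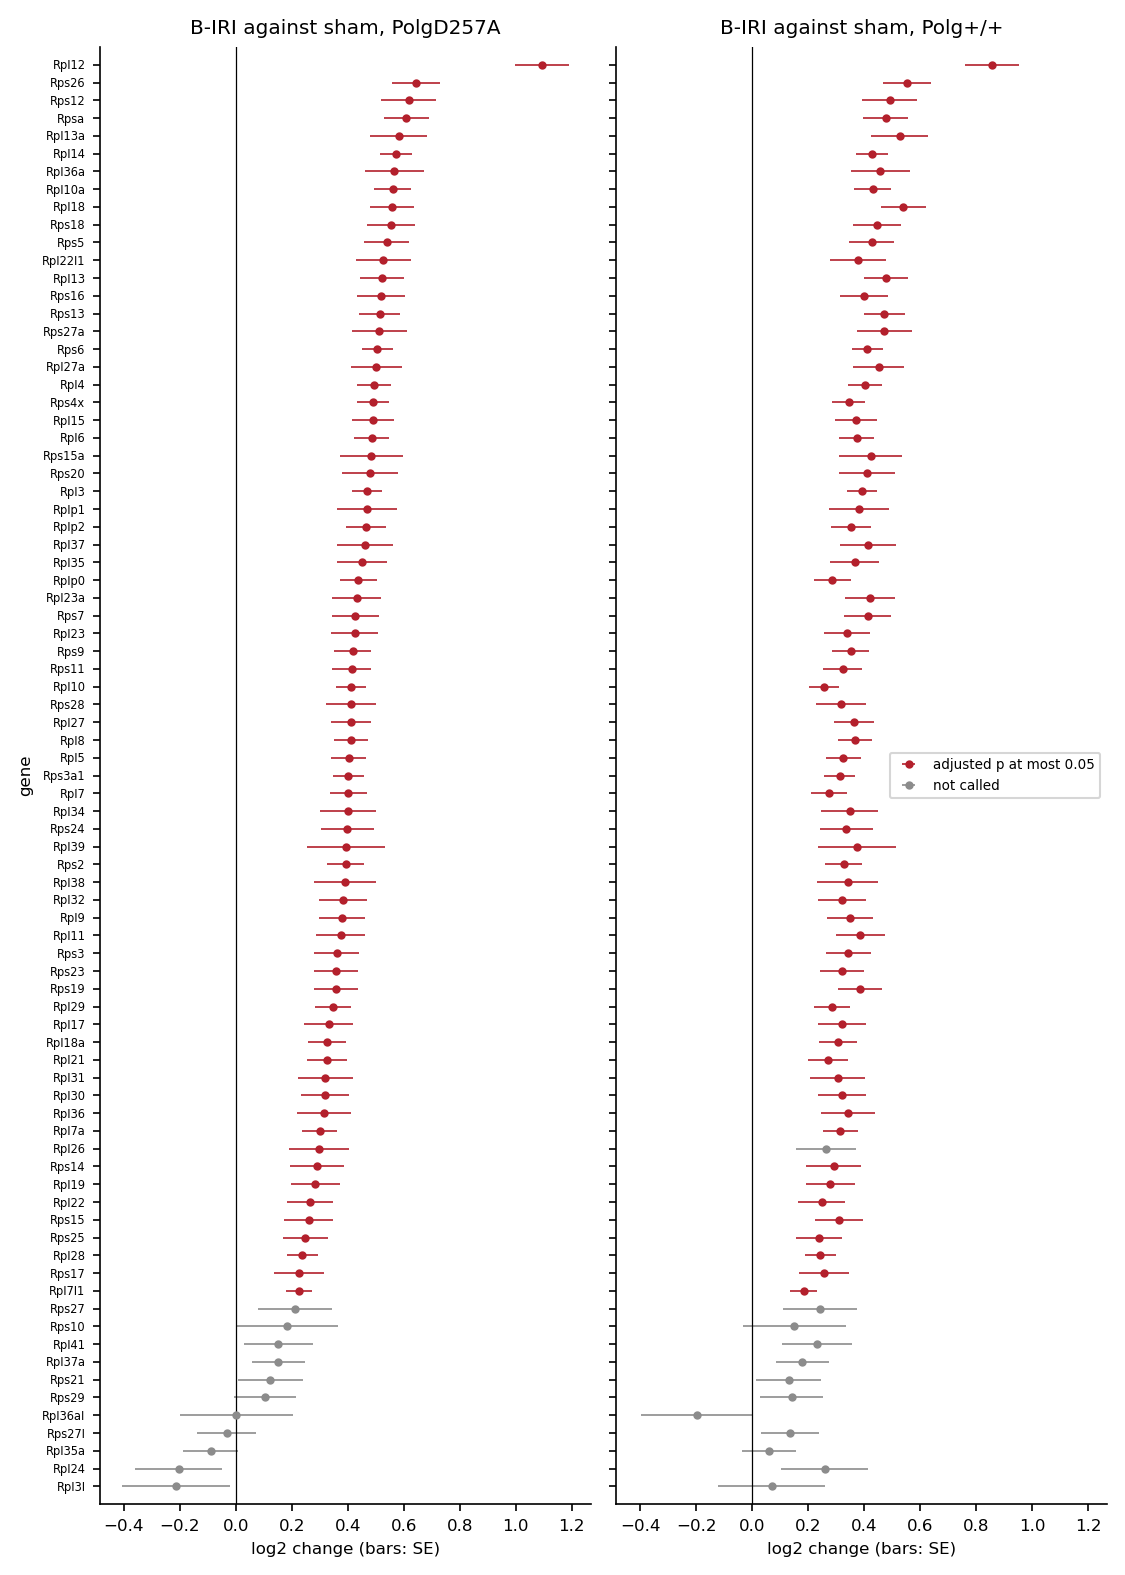
Log2 change after B-IRI against sham for the tested members drawn in PolgD257A (left) and Polg+/+ (right), with standard errors. Red points had an adjusted p of at most 0.05, grey points did not, and Rpl12 stands apart at the top in both panels.

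Both subunits moved together. The share of all genes tested that rose was 30.2% in PolgD257A and 21.4% in Polg+/+. Of the 40S members, 27 of 31 rose in PolgD257A with a median change of 0.41, and 27 of 31 rose in Polg+/+ with a median of 0.35. Of the 60S members, 39 of 43 rose in PolgD257A (median 0.40) and 38 of 43 in Polg+/+ (median 0.34). All 3 P stalk members rose in each genotype, with medians of 0.46 and 0.36. Of the 5 tested paralogs 2 rose in each genotype, with medians of 0.00 in PolgD257A and 0.14 in Polg+/+.

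Rpl12, a 60S protein at the base of the stalk, had the largest rise in both genotypes. It had 7662 to 10918 normalized counts after B-IRI in PolgD257A (median 9423), against 3534 to 5306 in sham PolgD257A (median 4377). It had 6672 to 8493 after B-IRI in Polg+/+ (median 7412), against 3564 to 4870 in sham Polg+/+ (median 4125). The lowest B-IRI library stood above the highest sham library in each genotype. The log2 changes were 1.09 ± 0.10 in PolgD257A (limma, adjusted p = 2.51e-10) and 0.86 ± 0.10 in Polg+/+ (limma, adjusted p = 9.56e-08), where ± is the standard error. These calls held under each of the 36 alternative settings run for Rpl12, with log2 changes of 1.03 to 1.29 in PolgD257A and 0.81 to 0.95 in Polg+/+.

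Among the 40S members, Rps26, which lines the path where the message leaves the ribosome, had 5058 to 6995 normalized counts after B-IRI in PolgD257A (median 5858), against 3164 to 4616 in sham PolgD257A (median 3787). In Polg+/+ it had 4925 to 5739 after B-IRI (median 5196), against 3070.5 to 3899 in sham (median 3670). The groups did not overlap in either genotype, and the log2 changes were 0.64 ± 0.09 and 0.55 ± 0.09 (limma, adjusted p = 3.16e-07 and 1.02e-05).

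Rpsa, a 40S protein that was first described as a laminin receptor, had 13435 to 18745 normalized counts after B-IRI in PolgD257A (median 16008), against 9495 to 12395 in sham PolgD257A (median 10103). It had 12257 to 15404 after B-IRI in Polg+/+ (median 13743), against 9116 to 10703 in sham Polg+/+ (median 9844). The groups did not overlap in either genotype, although 1 sham PolgD257A library, replicate 6, stood well above the other 5. The log2 changes were 0.61 ± 0.08 and 0.48 ± 0.08 (limma, adjusted p = 2.28e-07 and 2.59e-05). Rps12, a small subunit protein, rose by 0.62 ± 0.10 in PolgD257A and by 0.49 ± 0.10 in Polg+/+. Rpl18 and Rpl13a, both of the 60S subunit, were among the 5 largest rises in Polg+/+, at 0.54 ± 0.08 and 0.53 ± 0.10. The level of Rpl13a is uncertain, since another annotated gene overlaps most of its exons on the same strand.

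The P stalk is formed by Rplp0 with copies of Rplp1 and Rplp2. Rplp0 had 17431 to 22585 normalized counts after B-IRI in PolgD257A (median 19997), against 13299 to 16499 in sham PolgD257A (median 14689). It had 16319 to 18723 after B-IRI in Polg+/+ (median 17115), against 12890 to 15861 in sham Polg+/+ (median 14345). B-IRI and sham libraries did not overlap, and the log2 changes were 0.44 ± 0.07 and 0.29 ± 0.07 (limma, adjusted p = 2.39e-06 and 0.00103). Rplp2 rose by 0.46 ± 0.07 in PolgD257A and by 0.36 ± 0.07 in Polg+/+, also without overlap. Rplp1 rose by 0.47 ± 0.11 and 0.38 ± 0.11, and in PolgD257A its B-IRI range of 11392 to 18140 overlapped its sham range of 8235 to 12784.

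**Figure D3:**
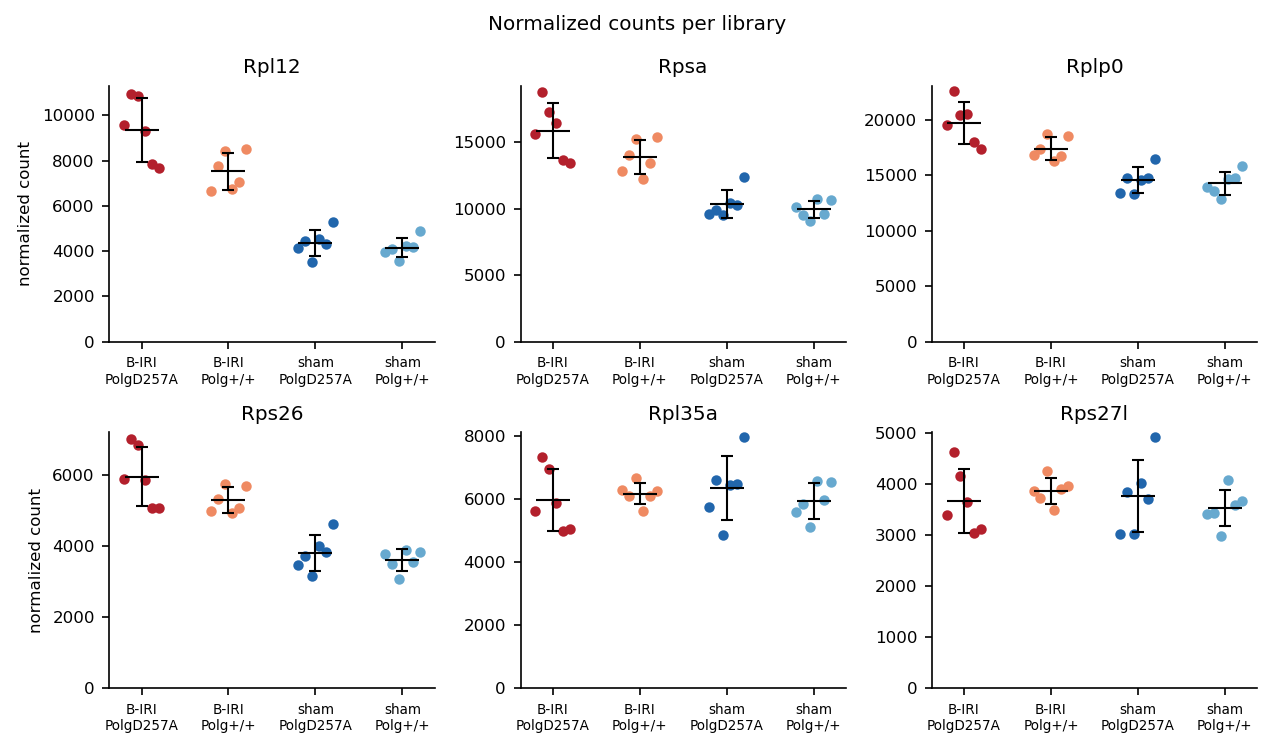
Normalized counts of 6 members, 1 point per library, with the mean and SD of 6 libraries per group in black and the axis starting at 0. Rpl12, Rpsa, Rplp0 and Rps26 stood higher after B-IRI in both genotypes, while for Rpl35a and Rps27l the B-IRI and sham groups overlapped.

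The 11 members called in neither genotype, listed after their values were seen, were Rpl24, Rpl35a, Rpl36al, Rpl37a, Rpl3l, Rpl41, Rps10, Rps21, Rps27, Rps27l and Rps29. Of these, 4 were barely counted. Rpl24, a core 60S protein, had 17 to 34 normalized counts over all libraries, Rpl36al 11 to 26 and Rps10, a core 40S protein, 32 to 122. The principal transcripts of these 3 genes and of Rpl13a are overlapped over more than 50% of their exons by another gene on the same strand in GENCODE M21, and the overlapping genes themselves held at most 30 reads. Apart from these genes and the paralogs, the other 74 members had mean levels of 3079 to 19406 normalized counts. The levels and changes of Rpl24, Rpl36al, Rps10 and Rpl13a are therefore uncertain, and the sources used here do not say how reads that fall on 2 genes were assigned. The other barely counted gene, Rpl3l, is a paralog of Rpl3 known from heart and skeletal muscle, and had 33 to 82 normalized counts.

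The other 7 were well counted. Rpl35a, a 60S protein, had 4987 to 7329 normalized counts after B-IRI in PolgD257A (median 5730), against 4865 to 7947 in sham PolgD257A (median 6457). It had 5627 to 6660 after B-IRI in Polg+/+ (median 6168), against 5096 to 6563 in sham Polg+/+ (median 5894.5). The ranges overlapped almost fully, and the log2 changes were -0.09 ± 0.10 and 0.06 ± 0.10 (limma, adjusted p = 0.437 and 0.649). Rps27l, a paralog of Rps27 known as a target of p53, had 3037 to 4621 after B-IRI in PolgD257A (median 3527), against 3026 to 4915 in sham PolgD257A (median 3784). In Polg+/+ it had 3496 to 4261 after B-IRI (median 3892), against 2988 to 4073 in sham (median 3517). Its groups also overlapped, with log2 changes of -0.03 ± 0.10 and 0.14 ± 0.10 (limma, adjusted p = 0.804 and 0.312). With libraries scaled to equal totals, the PolgD257A estimates of Rpl35a and Rps27l were positive, at 0.10 and 0.16. The remaining 5 had estimates of 0.11 to 0.21 in PolgD257A and 0.13 to 0.24 in Polg+/+.

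Coding length went with the size of the change. The 10 tested members with a coding length of up to 300 nucleotides had median log2 changes of 0.18 in PolgD257A and 0.24 in Polg+/+, and 4 of them were called in each genotype. The 48 members of over 300 and up to 600 nucleotides had medians of 0.39 and 0.35, with 44 and 43 called. The 24 longer members had medians of 0.48 and 0.37, with 23 called in each. All these calls were higher, where 30.2% and 21.4% of all genes tested were called higher. Of the 7 well-counted members called in neither genotype, all but Rpl35a belong to the shortest class. Across the 82 members the Spearman correlation of coding length with the log2 change was 0.30 in PolgD257A and 0.21 in Polg+/+. These points share the same libraries, and short members also varied more. Within groups, the Spearman correlation of a member's SD of log2 values with its coding length was -0.69.

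**Figure D4:**
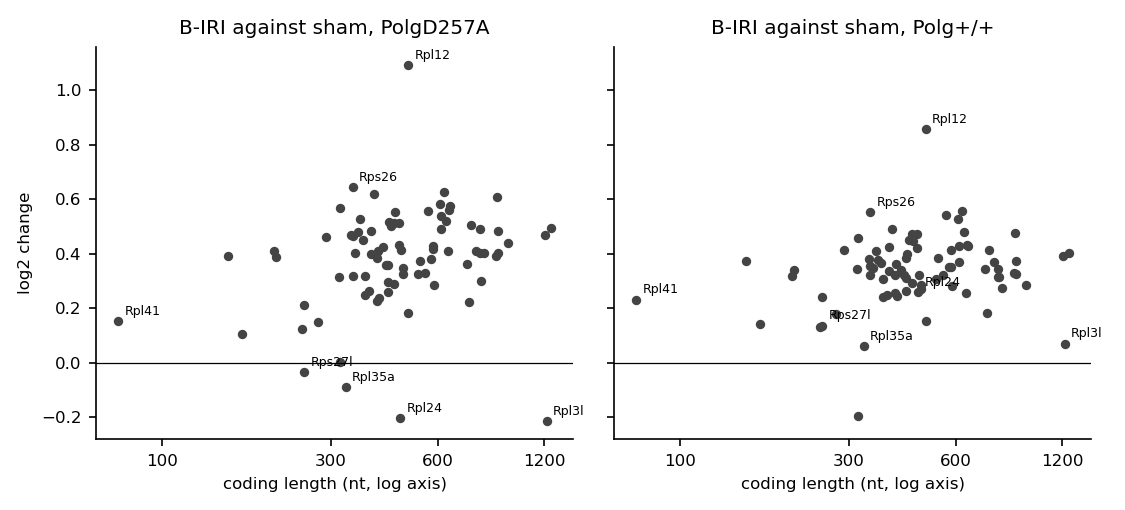
Log2 change after B-IRI against sham for the 82 tested members against coding length in nucleotides (log axis), in PolgD257A (left) and Polg+/+ (right), with 7 genes named. Most points below 0.2 belong to members with short coding regions or to genes with few counts such as Rpl24 and Rpl3l.

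Among other coding genes the median also rose with length class in PolgD257A, over a smaller range. In Polg+/+ it rose from the shortest to the middle class and was lowest in the longest. The 289 other tested coding genes of up to 300 nucleotides had median log2 changes of -0.09 in PolgD257A and 0.01 in Polg+/+. The 1325 of over 300 and up to 600 nucleotides had medians of 0.002 and 0.06. The 8726 of over 600 and up to 5000 nucleotides had medians of 0.01 and -0.01. In each length class the members' median lay above that of the other genes. The part of message length in the members' changes was not tested.

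Within groups, ribosomal protein messages varied together from library to library. The median SD of a member's log2 values within groups was 0.159, with a range of 0.0755 to 0.349. The median was 0.105 for the 4228 other genes averaging 1000 normalized counts or more. The members were not held to that level, and their largest SDs were those of the barely counted Rpl3l (0.349), Rps10 (0.336) and Rpl36al (0.326). Each member's deviations from its group means were set against those of the mean of all tested members over the 24 libraries. That mean includes the member itself, which can raise its correlation. The median Pearson correlation was 0.965, and 68 of the 82 members were above 0.9. The lowest values belonged to the barely counted Rpl24 (-0.12), Rpl3l (-0.07) and Rps10 (0.01). The libraries' own depth and RNA quality are shared by all members, and their part in this was not tested.

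Genes outside the set were compared with the same mean over the 24 libraries, of which they are not part. The 10 most like it were led by Rack1 (r = 0.969), a protein of the 40S subunit whose symbol the rule did not cover. Next came Sec61g, a subunit of the endoplasmic reticulum translocon (0.959), and Eef1b2, a subunit of the elongation factor that reloads EF1A (0.959). The others were Gm10076, Snrpd2, Ppia, Polr2f, S100a1, Bola2 and Ssr4, with correlations of 0.936 to 0.958.

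The paralogs differed in level and in change. Rpl22l1, a paralog of Rpl22, had 1018 to 1500 normalized counts after B-IRI in PolgD257A (median 1187), against 699 to 1119 in sham PolgD257A (median 849). It had 941 to 1158 after B-IRI in Polg+/+ (median 1117), against 749 to 915 in sham Polg+/+ (median 823). The groups overlapped in PolgD257A and not in Polg+/+. Rpl22l1 rose by 0.53 ± 0.10 and 0.38 ± 0.10 (limma, adjusted p = 5.2e-05 and 0.00325), and Rpl22 itself rose by 0.27 ± 0.08 and 0.25 ± 0.08. Rpl7l1 rose by 0.22 ± 0.05 and 0.18 ± 0.05, beside 0.40 ± 0.07 and 0.27 ± 0.07 for Rpl7.

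In other pairs the paralog itself did not pass the test. Rpl3 rose by 0.47 ± 0.05 in PolgD257A and 0.39 ± 0.05 in Polg+/+, while the estimates for Rpl3l were -0.21 ± 0.19 and 0.07 ± 0.19. Rpl36a rose by 0.57 ± 0.10 and 0.46 ± 0.10, with 0.00 ± 0.20 and -0.20 ± 0.20 for the barely counted Rpl36al. Neither Rps27 (0.21 ± 0.13 and 0.24 ± 0.13) nor Rps27l passed the test. Rpl10l, known from testis, had 0 reads in all 24 libraries, and Rpl39l, also known from testis, had 1 read in each of 2 libraries. Their parent genes Rpl10 (0.41 ± 0.05 and 0.26 ± 0.05) and Rpl39 (0.39 ± 0.14 and 0.37 ± 0.14) rose in both genotypes. Rps4l, named beside Rps4x, is one of the pseudogenes left out.

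Levels can be set side by side only per length of message. Per kilobase of transcript, the members with the highest levels over all libraries were Rplp1, Rpl41 and Rps2, with 19106, 21089.5 and 16671 normalized counts per kilobase in sham Polg+/+. The lowest tested were Rpl36al, Rpl24 and Rpl3l, with 35.0, 31.0 and 41.2 per kilobase in sham Polg+/+. Many members resemble other genes closely. A median of 56.1% of a member's 50-base stretches also occur in transcripts of other genes, and for 50 of the 84 members the share is at least 50%. The 300 annotated ribosomal protein pseudogenes together held reads equal to 1.55% to 1.78% of the members' reads in each library. How reads that match several places were counted is not given in the sources used here, so a level for 1 gene can include reads of a copy.

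Few members passed the test between genotypes after B-IRI. In PolgD257A against Polg+/+ after B-IRI, 7 of 82 members (8.54%) were higher and none was lower, with a median change of 0.12, where 14.3% of all 17430 genes tested were called higher and 15.2% lower. The order of these shares depends on the scaling of libraries. With equal totals 28.0% of members were called higher, against 20.6% of all genes, and with quantile normalization 47.6%, against 14.2%. The 7 were Rpl12, Rplp0, Rps4x, Rpl3, Rps6, Rpl10 and Rpl14, the last of these named after its values were seen. Their log2 changes were 0.15 to 0.31, and the groups overlapped for each of them. No member had all 6 PolgD257A libraries above all 6 Polg+/+ libraries, against 4.65% of all genes tested.

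Rpl12 had the largest genotype difference after B-IRI, at 7662 to 10918 normalized counts in PolgD257A (median 9423) and 6672 to 8493 in Polg+/+ (median 7412), where 4 of the PolgD257A libraries stood above all Polg+/+ libraries. Its log2 change was 0.31 ± 0.10 (limma, adjusted p = 0.0166), and the call held in all 36 alternative settings. Rps6, the 40S protein phosphorylated by S6 kinases downstream of mTORC1, had 6938 to 8545 in PolgD257A (median 7626) and 6496 to 7224 in Polg+/+ (median 6898). The log2 change of Rps6 was 0.16 ± 0.06 (limma, adjusted p = 0.0292). Rpl3, close to the peptidyl transferase centre, differed by 0.16 ± 0.05 and Rplp0 by 0.18 ± 0.07 (limma, adjusted p = 0.023 and 0.0434). The count of 7 rests on few libraries. Leaving out 1 library at a time gave 1 to 13 members, with 1 left without B-IRI PolgD257A replicate 3, B-IRI Polg+/+ replicate 1 or B-IRI Polg+/+ replicate 4. It fell to 2 without B-IRI PolgD257A replicate 1, 2 or 4 or without B-IRI Polg+/+ replicate 5, and to 4 without B-IRI Polg+/+ replicate 2. It was 12 and 13 without B-IRI PolgD257A replicates 5 and 6. The shares of all genes tested with a library left out are not given here, so these counts cannot be set against them.

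In sham kidneys no member was called in PolgD257A against Polg+/+ by limma, where 0.0861% of all genes tested were called higher and 0.0402% lower. None of the 82 members had an unadjusted limma p of at most 0.05, against 1280 of the 17430 genes tested. The edgeR and DESeq2 tests on whole reads also called 0 members. The median difference was 0.06, and the smallest adjusted p among the members was 0.770. Rps26, for example, had 3164 to 4616 normalized counts in sham PolgD257A (median 3787) and 3070.5 to 3899 in sham Polg+/+ (median 3670), which overlap.

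The interaction test asked whether the change after B-IRI differed between genotypes. It called 0 members by limma, where 6.87% of all genes tested were called higher and 9.08% lower. By limma 1 member had an unadjusted p of at most 0.05, against 5046 of the 17430 genes tested. It also called 0 members by edgeR, where 1135 genes were higher and 1611 lower, and by DESeq2, where 1320 and 1757 were. The median interaction was 0.05 on the log2 scale with a standard error of 0.12 for a typical member. For Rpl12 it was 0.24 ± 0.14 (limma, adjusted p = 0.26), and for Rplp0 it was 0.15 ± 0.09 (limma, adjusted p = 0.297). With quantile normalization 14 members (17.1%) were called higher, against 7.65% of all genes tested. With libraries scaled to equal totals 3 members (3.66%) were called higher, against 13.5% of all genes tested.

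The factors that assemble ribosomes in the nucleolus rose as well. The shares over all genes tested were 30.2% higher and 30.3% lower after B-IRI in PolgD257A, and 21.4% higher and 19.8% lower in Polg+/+. Of 56 ribosome biogenesis factors, 51 rose after B-IRI in PolgD257A (median 0.61) and 49 in Polg+/+ (median 0.37), and none fell. Nop58, a core protein of the particles that methylate ribosomal RNA, had 1235 to 1665 normalized counts after B-IRI in PolgD257A, against 544 to 684 in sham PolgD257A, with a log2 change of 1.26 ± 0.08 (limma, adjusted p = 1.2e-12). In Polg+/+ Nop58 rose by 0.80 ± 0.08. Fbl, the methyltransferase of the same particles, rose by 0.93 ± 0.06 and 0.66 ± 0.06. After B-IRI, 43 of the 56 factors were higher in PolgD257A than in Polg+/+ (median 0.26), where 14.3% of all genes tested were higher. A positive interaction past the threshold was found for 27 (median 0.26), and for 6.87% of all genes tested.

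The members can be set beside other arms of translation. Of all genes tested, 30.2% rose and 30.3% fell after B-IRI in PolgD257A, and 21.4% rose and 19.8% fell in Polg+/+. Of 30 initiation factors 27 rose and 2 fell in each genotype, with medians of 0.33 in PolgD257A and 0.26 in Polg+/+. Eif6, which keeps new 60S subunits from joining 40S subunits too early, rose by 1.69 ± 0.07 and 1.12 ± 0.07. Of 20 further genes listed as TOP messages, 15 rose in each genotype, with medians of 0.37 and 0.29, and 1 fell in Polg+/+. Not all of these 20 encode translation factors, and the tract was not counted among them. Of 14 genes for RNA polymerase I, which transcribes ribosomal RNA, and its factors, 10 rose in PolgD257A (median 0.21) and 7 in Polg+/+ (median 0.13), and none fell. Of 10 tested genes for the import and chaperoning of ribosomal proteins 9 rose in PolgD257A and 8 in Polg+/+, among them the importin Ipo5 (0.76 ± 0.05 and 0.57 ± 0.05).

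Fau encodes a ribosomal protein fused to a ubiquitin-like protein, and lies outside the symbol rule. Fau had 6305 to 7918 normalized counts after B-IRI in PolgD257A, against 5923 to 8479 in sham PolgD257A, with overlapping groups. Its log2 changes were 0.01 ± 0.08 in PolgD257A and 0.13 ± 0.08 in Polg+/+, and it was not called in either, although it was called higher in both with libraries scaled to equal totals. Of 15 tested genes of ribosome quality control, 4 rose and 3 fell in PolgD257A and 4 rose and 1 fell in Polg+/+, where 30.2% and 21.4% of all genes tested rose. With equal totals 11 and 6 of these 15 rose and none fell, where 45.4% and 30.5% of all genes tested rose.

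The mitochondrial ribosome, a separate machine that translates the messages of mitochondrial DNA, had genes called in each direction. Of 77 tested mitochondrial ribosomal protein genes 15 rose and 23 fell after B-IRI in PolgD257A (median -0.05), where 30.2% of all genes tested rose and 30.3% fell. In Polg+/+ 24 rose and 2 fell (median 0.10), where 21.4% of all genes tested rose and 19.8% fell. After B-IRI 1 was higher and 15 were lower in PolgD257A than in Polg+/+ (median -0.10). Of all genes tested 14.3% were higher and 15.2% lower there. A negative interaction past the threshold was found for 7, and for 9.08% of all genes tested. Mrps21, a protein of the small mitochondrial subunit, had 1464 to 2182 normalized counts after B-IRI in PolgD257A, against 2236 to 3308 in sham PolgD257A, a fall of 0.67 ± 0.08 on the log2 scale. Mrps18b, also of the small subunit, rose by 0.88 ± 0.06 in PolgD257A and 0.64 ± 0.06 in Polg+/+. In sham kidneys 0 of the 77 were called between genotypes by limma. The direction of this list depends on the scaling of libraries. With equal totals 38 rose and 5 fell after B-IRI in PolgD257A (median 0.14), where 45.4% of all genes tested rose (median over all 0.19). In Polg+/+ 50 rose and 0 fell (median 0.19), where 30.5% of all genes tested rose (median over all 0.08). Between genotypes after B-IRI, 6 were then higher and 7 lower in PolgD257A, where 20.6% of all genes tested were higher. With quantile normalization 14 rose and 23 fell in PolgD257A, where 29.8% of all genes tested rose.

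**Figure D5:**
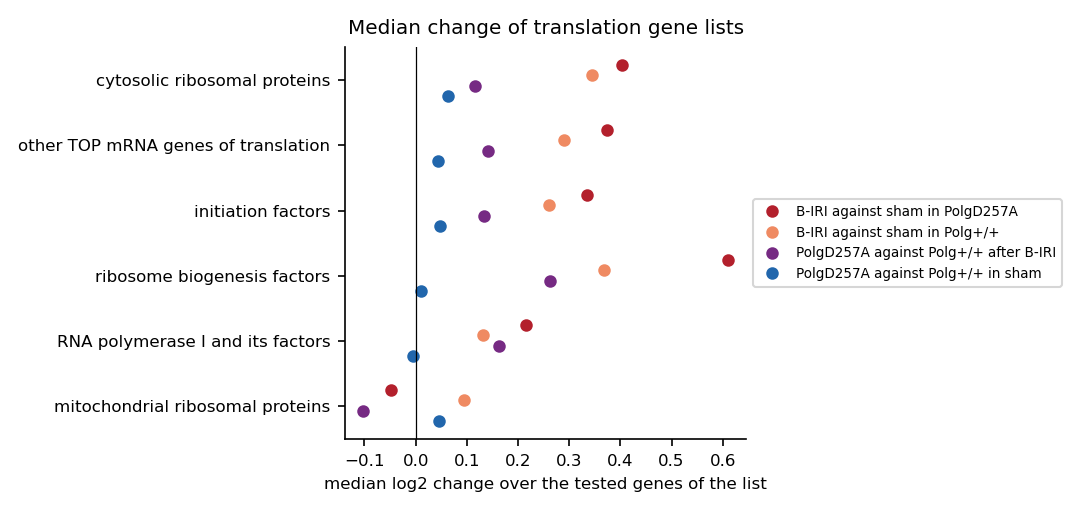
Median log2 change over the tested genes of 6 lists of genes linked to translation in 4 comparisons, 1 point per list and comparison. The cytosolic ribosomal proteins had medians of 0.40, 0.34, 0.12 and 0.06 from the top point down, the biogenesis factors reached 0.61, and the mitochondrial ribosomal proteins lay between -0.10 and 0.10.

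Of 19 genes that regulate TOP messages or form the MYC network, 5 rose and 6 fell in PolgD257A, and 6 rose and 5 fell in Polg+/+. These are near the shares over all genes tested, 30.2% and 30.3% in PolgD257A and 21.4% and 19.8% in Polg+/+. With equal totals 8 rose and 2 fell in PolgD257A, and 7 rose and 2 fell in Polg+/+, where 45.4% and 30.5% of all genes tested rose. Myc had 715 to 1000 normalized counts after B-IRI in PolgD257A and 186 to 465 after B-IRI in Polg+/+, against 62 to 168 in sham PolgD257A and 45 to 133 in sham Polg+/+. Its log2 changes after B-IRI were 2.97 ± 0.25 and 2.27 ± 0.25. Mtor, the kinase that controls TOP messages, fell by 1.07 ± 0.08 and 0.74 ± 0.08, and Eif4ebp1, a translation repressor that mTORC1 inactivates, rose by 2.28 ± 0.12 and 1.56 ± 0.12. Of 5 genes of the p53 response, which free ribosomal proteins can trigger through Mdm2, 4 rose in PolgD257A and 3 in Polg+/+. They include Cdkn1a (3.35 ± 0.18 and 2.13 ± 0.18) and Trp53 (1.17 ± 0.07 and 0.65 ± 0.07).

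Markers of kidney, stromal and immune cell types were called in differing numbers after B-IRI. Of all genes tested, 30.2% were called higher and 30.3% lower in PolgD257A, and 21.4% higher and 19.8% lower in Polg+/+. The 8 proximal tubule markers summed to 112330 to 143950 normalized counts after B-IRI in PolgD257A, against 289460 to 359150 in sham PolgD257A, with all 8 lower. In Polg+/+ they summed to 173300 to 233230 after B-IRI, against 256250 to 342820 in sham, with 6 of 8 lower. The 6 stromal markers summed to 9460 to 15753 after B-IRI in PolgD257A, against 2726 to 3716 in sham PolgD257A, and 5 of 6 were higher. In Polg+/+ they summed to 4907 to 10750 after B-IRI, against 3148 to 3987 in sham, with 4 of 6 higher. The 7 proliferation markers summed to 3099 to 6407 after B-IRI in PolgD257A, against 1616 to 1857 in sham PolgD257A, and 2645 to 4365 after B-IRI in Polg+/+, against 1560 to 1905 in sham Polg+/+, with 5 of 7 higher in each genotype. The 9 macrophage markers summed to 3085 to 4387 after B-IRI in PolgD257A, against 2552 to 3149 in sham PolgD257A, and 5 were higher and 1 was lower. In Polg+/+ they summed to 2312 to 3874 after B-IRI, against 2633 to 3358 in sham, again with 5 higher and 1 lower. The 7 neutrophil markers, of which 3 passed the filter, summed to 83.7 to 505 after B-IRI in PolgD257A, against 15.99 to 53.9 in sham PolgD257A, and Mpo was at 0 in 3 of the 4 groups. In Polg+/+ they summed to 38.9 to 127 after B-IRI, against 20.03 to 36.7 in sham. Of the 8 markers of the loop of Henle, distal tubule and collecting duct, 0 were higher and 4 lower in PolgD257A, and 2 were higher and 3 lower in Polg+/+. Their sums were 91285 to 147870 after B-IRI in PolgD257A, against 143850 to 171910 in sham PolgD257A, and 152950 to 173830 after B-IRI in Polg+/+, against 146680 to 173180 in sham Polg+/+. Of the 4 glomerular markers 1 was higher in PolgD257A and 0 in Polg+/+. Of the 5 endothelial markers 3 were higher and 1 lower in PolgD257A, and 0 were higher and 1 lower in Polg+/+. Of the 9 tested B and T cell markers 0 were higher in either genotype, 2 were lower in PolgD257A and 1 was lower in Polg+/+. The part of cell composition in the members' rise was not tested.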

How the data were processed

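RNA was extracted with the RNeasy kit and 2 µg went into NEBNext Ultra II RNA libraries, per the labels' protocols. The submitters' processing notes name FastQC, STAR, SAMtools, featureCounts, DESeq2 and GRCm38.p6; the sources used here do not give strandedness or the handling of reads matching several places. The deposited table holds a normalized count signal for 55416 genes, which the authors made by dividing counts by size factors; all values came out as whole reads within 0.001, with size factors of 0.740 to 1.31. Its columns are named Ctrl and Mut, read here as Polg+/+ and PolgD257A. The authors' deposited comparison table, with log2 fold changes and s-values (a chance of a wrong sign) in place of p-values for 1401 genes, holds no member and was not used for results.

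Values were tested as log2(normalized count + 1) with limma 3.58.1 (trend) in R 4.3.3, in a model of 4 group means fitted to the 24 libraries together, for the 17430 genes that reached 10 normalized counts in 6 or more of them. P-values were adjusted by Benjamini-Hochberg over these genes, and an adjusted p of at most 0.05 is called. Alternatives were edgeR 4.0.16 (5379 higher and 5261 lower for B-IRI against sham in PolgD257A, beside 5260 and 5274 by limma) and DESeq2 1.42.0 on the whole reads, other scalings, filters and pseudocounts, a replicate block and leaving out libraries. The test was checked on simulated data. P-values measure the spread between libraries labelled as biological replicates.

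Members and gene lists were chosen with earlier results of these data known. Genes named are Rpsa, the stalk genes, paralogs and their parents, the 5 largest rises in each comparison, the 3 highest and lowest per kilobase, up to 4 genes per list by smallest adjusted p, and the 10 most like the members; exceptions are stated. Values of 2 genes are not reported here. Biotypes, lengths and overlaps come from GENCODE M21, which holds 94.08% of the deposited gene IDs (25 of 1393 matched genes have the same start in the authors' deposited comparison table), and sequences from RefSeq (GRCm38.p6).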

Additional observations from a re-analysis of the deposited data

Results flagged for a closer look

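In a group of 6 libraries, 1 library stood far from the other 5 in 4 of 124 groups checked (the named members, their share of reads and their averaged log2 level in each of the 4 groups). Chance flags about 1 in 20. Rpsa had 12395 normalized counts in sham PolgD257A replicate 6, against 9495 to 10412 in the other 5 libraries of that group. Rpl22l1 had 1119 normalized counts in the same library, against 699 to 855 in the other 5. Rpl39l had 1.0503 normalized counts, which is 1 read, in B-IRI Polg+/+ replicate 3 and 0 in the other 5 libraries, and 1.178 in sham Polg+/+ replicate 4 and 0 in the other 5.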

How the results depend on the processing

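Of 562 alternative values for counts and medians of members, 540 stayed within the set limits of the reported ones. Counts were held to a set ratio and medians to 0.141 on the log2 scale. That limit is wider than the medians of both genotype comparisons and of the interaction, so the tally cannot show whether those medians hold. It also includes the counts of members called lower, which were 0 as reported. The counts after B-IRI against sham were 68 to 72 (PolgD257A) and 65 to 71 (Polg+/+) when leaving out 1 library at a time, and none was called lower. With a log2 change of at least 0.5 also required they were 19 and 5, and 0 between genotypes after B-IRI. The share of all genes tested that passed this added threshold is not given here, so these counts cannot be set against it. The count of 7 between genotypes after B-IRI was 1 to 13 when leaving out 1 library, 1 with no filter, 23 with equal library totals, 39 with quantile normalization, and 4 with only the 12 libraries compared. Equal totals gave 28.0% of members, against 20.6% of all genes tested, and quantile normalization 47.6%, against 14.2%. For the other settings, and wherever 1 library was left out, the shares of all genes tested are not given here. Those counts cannot be set against them. The interaction count of 0 became 3 with equal totals (3.66%, against 13.5% of all genes tested) and 14 with quantile normalization (17.1%, against 7.65%). In the sham comparison and the interaction, leaving out 1 library left 0 called. The medians ranged over 0.37 to 0.45 (PolgD257A), 0.30 to 0.38 (Polg+/+), 0.07 to 0.15 (after B-IRI), 0.01 to 0.12 (sham) and 0.003 to 0.11 (interaction).

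Equal totals gave a PolgD257A median of 0.59 and quantile normalization 0.58. Equal totals moved the median of all genes by 0.19 in that comparison; the members' median above that of all genes was 0.41 with it and 0.40 as reported. Of all calls, 70.2% were then higher in PolgD257A B-IRI against sham (49.9% as reported), 71.0% (52.0%) in Polg+/+, 63.8% (48.4%) between genotypes after B-IRI, 55.6% (68.2%) in sham and 69.3% (43.1%) for the interaction. The causes were not tested.

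The replicate numbers did not pair the libraries: 2 of 24 same-number correlations were above 0.1 (range -0.326 to 0.174). With the replicate block, 4 members were called between genotypes after B-IRI, and the other counts were unchanged at 71, 70, 0 and 0. The shares of all genes tested with that block are not given here. Leaving out the 4 members overlapped by another gene, chosen after seeing the data, gave 70 and 69 of 78. No named member that was called changed direction.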
